A study of Mus musculus with 2 samples.

Results

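Myosin light chain kinases are enzymes that calcium-bound calmodulin switches on and that phosphorylate the regulatory light chain of myosin. Mouse has 4 genes named for this family, Mylk, Mylk2, Mylk3 and Mylk4, and all 4 were found by symbol among the 27998 genes counted. They were chosen on measured values, since Mylk4 had stood out between the libraries in earlier results of these data. Its levels by library are therefore given as a description. Mylk is the kinase of smooth muscle and of many other cells, where light chain phosphorylation starts contraction. Mylk2 is the skeletal muscle kinase, and phosphorylation by it raises the force of a twitch after repeated stimulation in fast fibres. Mylk3 is the cardiac kinase. Mylk4 is known mainly from striated muscle, and its role there is less clear.

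Single-nucleus RNA sequencing was run on gastrocnemius-plantaris (GP) muscle, the calf group of the hindlimb, from B6C3F1 mice 5 months old. Ctrl was Net39 fl/fl without Cre, and cKO was HSACreERT2;Net39 fl/fl. Both groups had received tamoxifen 3 months earlier and both carried the floxed gene. HSACreERT2 is a Cre recombinase driven by the human skeletal actin promoter, so it acts in muscle fibres and not in vessels or connective tissue. Net39 is a nuclear envelope protein of muscle encoded by Plpp7. There was 1 library per group. The protocol in the labels gives 3 pooled muscles for each, while the sample titles name a single mouse, so how many animals a library holds is not settled. Hence no test was possible and no difference could be set against the spread between animals. All intervals given are 95% intervals and cover counting error only.

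Sequencing gave 10410316 unique molecular identifiers (UMIs, each marking 1 captured RNA molecule) in 3863 nuclei of Ctrl, and 8446070 in 3994 nuclei of cKO. After filtering, 3526 Ctrl and 3595 cKO nuclei remained, with medians of 2040.5 and 1611 UMIs, and Malat1 took 25.6% and 30.7% of their UMIs. The libraries shared 5 barcodes. Levels are given in CPM, the UMIs of a gene per 1000000 UMIs of all genes in the same nuclei. Plpp7, the targeted gene, had 50.9 CPM in Ctrl fibre nuclei and 41.7 CPM in those of cKO. Only its first exon was floxed and the assay reads 3′ ends, so this value does not check the deletion.

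Nuclei were sorted by marker UMIs alone. Nuclei outside the fibres held at least 3 UMIs from at least 2 genes of a marker list and more of these than of myosin. All others were taken as fibre nuclei, of which there were 3179 in Ctrl and 3441 in cKO. Fibre nuclei were then grouped by main myosin, the gene with 60% or more of the UMIs of Myh7, Myh2, Myh1 and Myh4 together, where these came to 3 or more. These genes mark slow, type IIa, type IIx and type IIb fibres in that order. The Myh4-main class held 1991 Ctrl and 1477 cKO nuclei, the Myh1-main class 307 and 393, the Myh2-main class 168 and 330, and the Myh7-main class only 20 and 283. A further 136 Ctrl and 226 cKO nuclei had mixed myosin, and 557 and 732 had too few myosin UMIs. Outside the fibres stood 231 Ctrl and 95 cKO nuclei of fibro-adipogenic progenitors (FAPs, connective tissue cells between the fibres). Vascular-marker nuclei numbered 85 in Ctrl and 37 in cKO, of which 60 and 25 were endothelial and 25 and 12 were smooth muscle and pericyte nuclei. Genes that played no part in the sorting followed the labels. Tnnt1, the slow troponin T, was at 1219 CPM in Ctrl Myh7-main nuclei against 5.62 CPM in Myh4-main nuclei. Cald1, a smooth muscle actin-binding protein, was at 1208 CPM in Ctrl smooth muscle and pericyte nuclei against 20.6 CPM in fibre nuclei.

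The 4 genes differed widely in the number of molecules behind each value. In the nuclei kept, Mylk4 had 28108 UMIs, Mylk2 had 6197, Mylk had 153 and Mylk3 had 17. Fibre nuclei held 98.4% of the Ctrl and 99.3% of the cKO UMIs of Mylk4. For Mylk2 these shares were 97.9% and 99.2%. For Mylk they were 47.2% and 53.3%, although fibre nuclei made up 90.2% and 95.7% of all nuclei. All Mylk3 UMIs fell in fibre nuclei.

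Mylk4 (ENSMUSG00000044951) lies on the minus strand of chromosome 13 of GRCm38, from 32700834 to 32783954, and has 4 annotated transcripts in GENCODE M21. Mylk2 (ENSMUSG00000027470) lies on the plus strand of chromosome 2, from 152911352 to 152923068, with 1 transcript. Mylk3 (ENSMUSG00000031698) lies on the minus strand of chromosome 8, from 85324303 to 85386345. Mylk (ENSMUSG00000022836) spans chromosome 16 from 34745210 to 35002420 on the plus strand. The same 3′ end of Mylk also serves telokin, a short product without the kinase domain, so its UMIs do not show which product was made. Annotated antisense genes overlap Mylk (1700119H24Rik) and Mylk3 (AA672651), and both were counted as separate genes.

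The 250 bases before the RefSeq start are shown for Mylk4, highest in fibres, and for Mylk, highest in vessels, because these genes stood at opposite ends of the comparison between cell types. The windows are chr13:32783965-32784214 on the minus strand and chr16:34784700-34784949 on the plus strand of GRCm38.p6. The Mylk window lies inside the annotated gene, which begins at 34745210 and has 8 transcripts. It belongs to an internal start, and the region before the outermost start of Mylk is not shown. The capitals mark E-boxes (CANNTG, the letters read by myogenic bHLH factors, searched on both strands).
Mylk4: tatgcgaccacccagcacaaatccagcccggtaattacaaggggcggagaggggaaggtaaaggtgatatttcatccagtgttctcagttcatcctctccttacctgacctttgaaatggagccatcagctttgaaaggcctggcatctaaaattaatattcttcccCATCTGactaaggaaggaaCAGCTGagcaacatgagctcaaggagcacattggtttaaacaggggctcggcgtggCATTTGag
Mylk: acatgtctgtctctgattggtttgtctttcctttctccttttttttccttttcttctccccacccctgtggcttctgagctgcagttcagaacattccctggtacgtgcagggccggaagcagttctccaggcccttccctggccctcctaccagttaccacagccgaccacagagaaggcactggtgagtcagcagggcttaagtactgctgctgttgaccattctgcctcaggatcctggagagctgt
The Mylk4 window held 3 E-boxes and 1 MEF2 motif, the sequence of a family of muscle transcription factors. The Mylk window held 0 of either, and neither held a CArG box, the motif of serum response factor. Over 32851 RefSeq promoter windows of the same length, 66.2% held an E-box, 2.92% a MEF2 motif and 1.47% a CArG box. These matches describe the letters only. The window of Mylk3 at start site 85381041 held 1 E-box and that at 85365324 held 0.

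Mylk4 differed more steeply between fibre classes than Mylk2 did. In Ctrl, its level was 2990 CPM in Myh4-main nuclei (2945 to 3036, 17025 UMIs) and 1320 CPM in Myh1-main nuclei (1242 to 1401, 1078 UMIs). It was 350 CPM in Myh2-main nuclei (295 to 411, 147 UMIs) and 430 CPM in Myh7-main nuclei (255 to 680, 18 UMIs). The Ctrl level was thus 2.27-fold higher in Myh4-main than in Myh1-main nuclei (2.13 to 2.41) and 8.55-fold higher than in Myh2-main nuclei (7.27 to 10.1). The Myh2-main and Myh7-main classes, the lowest of the 4, did not differ beyond counting error. Nuclei with mixed myosin stood between, at 1760 CPM, and those with too few myosin UMIs at 1971 CPM, with overlapping intervals.

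In cKO, the Mylk4 level was 1720 CPM in Myh4-main nuclei (1674 to 1767, 5234 UMIs) and 540 CPM in Myh1-main nuclei (494 to 590, 491 UMIs). It was 108 CPM in Myh2-main nuclei (85.3 to 135, 76 UMIs) and 145 CPM in Myh7-main nuclei (117 to 178, 91 UMIs). Of those 91 UMIs, 25 came from 1 nucleus. The order of the classes in Ctrl and cKO was alike, with Myh4-main highest, Myh1-main next, and Myh2-main and Myh7-main lowest with overlapping intervals. The gap between Myh4-main and Myh1-main nuclei was 3.18-fold in cKO (2.90 to 3.50).

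**Figure D1:**
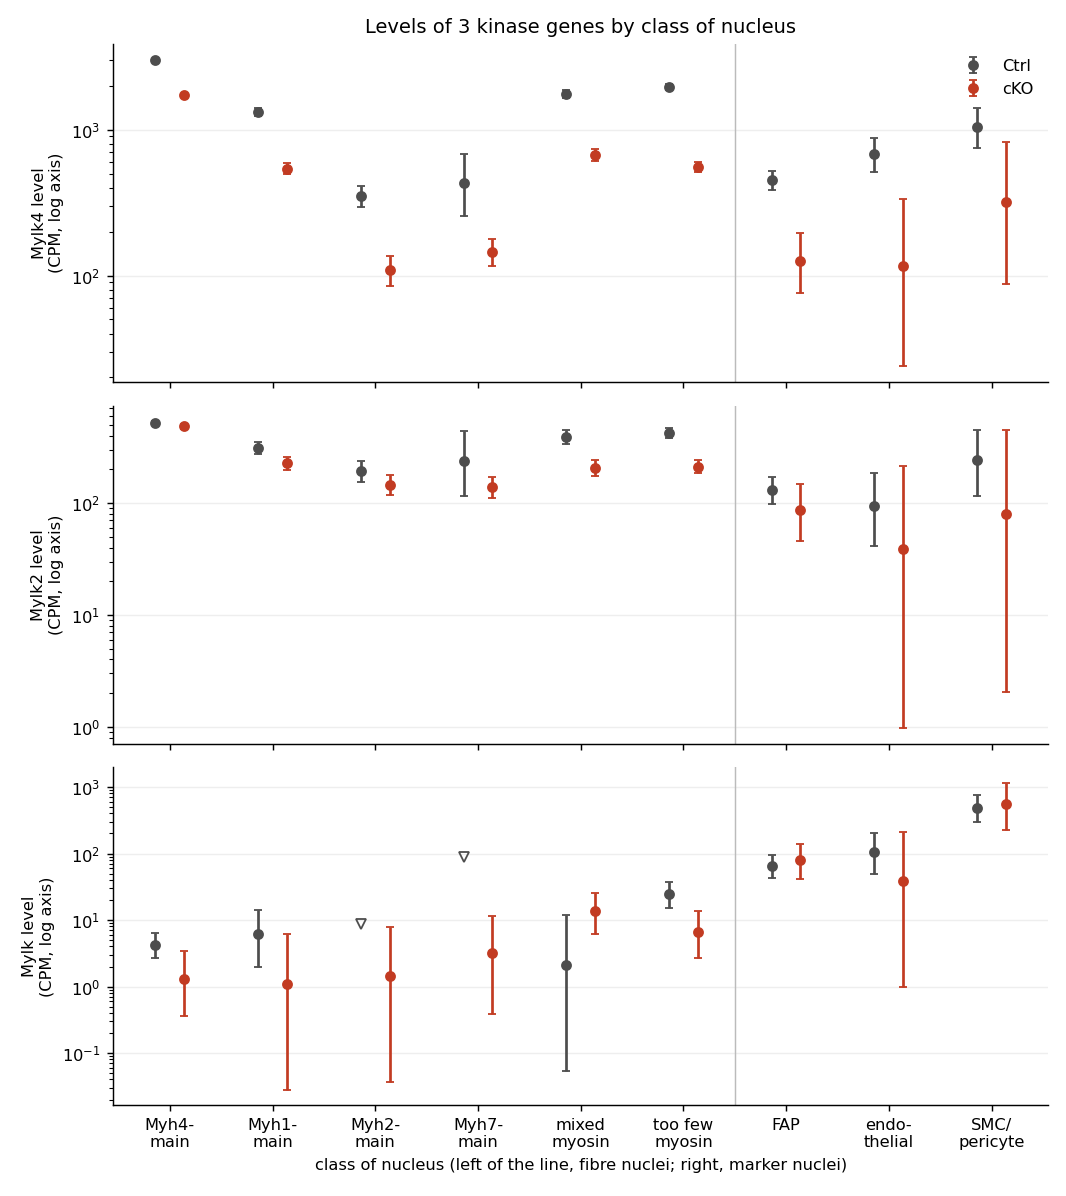
Levels of Mylk4, Mylk2 and Mylk in CPM on log axes, by class of nucleus, in Ctrl (grey) and cKO (red); points are the level of 1 library, bars its 95% Poisson interval, and open triangles the upper limit where no UMI was found. Ctrl Mylk4 lies at 2990 CPM in Myh4-main and 350 CPM in Myh2-main nuclei, while Ctrl Mylk is highest in smooth muscle and pericyte (SMC/pericyte) nuclei at 483 CPM.

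Nuclei outside the fibres set a background for these values. FAP-marker nuclei had 450 CPM of Mylk4 in Ctrl (389 to 518) against 126 in cKO (75.9 to 197). Endothelial nuclei had 676 CPM in Ctrl against 115 in cKO, the latter from 3 UMIs. Smooth muscle and pericyte nuclei had 1039 CPM in Ctrl against 321 in cKO, the latter from 4 UMIs. FAP-marker nuclei also held 10 marker genes of fibres at 21.6% to 30.6% of their fibre level in Ctrl, among them Myh4 at 461 CPM. For Mylk4 that percentage was 18% in Ctrl, below all 10, and 12.8% in cKO, below 9 of 10. In vascular-marker nuclei Mylk4 stood at 31.8% of its fibre level in Ctrl, below 5 of the 10, and at 18.4% in cKO, below 8 of 10.

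Counted per nucleus, Ctrl FAP-marker nuclei held 0.835 Mylk4 UMIs (0.722 to 0.962), Myh2-main nuclei 0.875 (0.739 to 1.03) and Myh7-main nuclei 0.90 (0.533 to 1.42). In cKO these means were 0.20 UMIs (0.120 to 0.312), 0.230 (0.181 to 0.288) and 0.322 (0.259 to 0.395). Median depths were 1336, 2171 and 2030 UMIs in Ctrl and 1265, 1816.5 and 1987 UMIs in cKO. At this depth the Mylk4 of Myh2-main and Myh7-main nuclei could not be told apart from that background, and it is not counted here as expression. Myh4-main nuclei, with 8.55 UMIs per nucleus in Ctrl and 3.54 in cKO, and Myh1-main nuclei, with 3.51 and 1.25, lay above the FAP values. Against other marker nuclei the Myh1-main level did not stand clear. The interval of Ctrl smooth muscle and pericyte nuclei (752 to 1400 CPM) overlapped its Ctrl interval, and the 13 immune-marker nuclei of cKO were higher, at 1143 CPM (724 to 1715). That immune interval also overlapped the interval of cKO Myh4-main nuclei (1674 to 1767 CPM).

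The comparison of cKO with Ctrl asked how Mylk4 differed after loss of Net39. Over all fibre nuclei, the Ctrl level of Mylk4 was 2504 CPM (2470 to 2538, 20802 UMIs) and the cKO level 988 CPM (965 to 1011, 6923 UMIs). The log2 ratio of cKO over Ctrl was −1.34 (−1.38 to −1.30), or a level 2.53-fold lower in cKO. The median log2 ratio of the 11796 genes with at least 20 UMIs was −0.10. Of these genes 5.69% were at least 2-fold lower in cKO, and Mylk4 was the only one of the 3 members tested there to be so, while Mylk also was when CPM was averaged over nuclei (−1.72 on the log2 scale). With Malat1 and mitochondrial genes excluded from the totals, every log2 ratio of a class was higher by 0.04 in Myh4-main nuclei, 0.10 in all fibre nuclei and 0.22 in Myh7-main nuclei.

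Among the 4 classes the difference was smallest where the level was highest. In Myh4-main nuclei it was −0.80 on the log2 scale (−0.84 to −0.75), or 1.74-fold lower in cKO. In Myh1-main nuclei it was −1.29 (−1.44 to −1.13), or 2.44-fold lower. The difference between these log2 ratios was −0.49 (−0.65 to −0.33). In Myh2-main and Myh7-main nuclei, where the level could not be told apart from background, the values were −1.69 (−2.11 to −1.28) and −1.57 (−2.31 to −0.75). The Myh7-main value rests on 18 Ctrl UMIs and turned to 0.65 (−1.93 to 5.99), from 1 Ctrl UMI, when the main myosin was assigned after thinning each nucleus to 500 UMIs. Nuclei with mixed myosin gave −1.40, and those with too few myosin UMIs −1.83.

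At least 2-fold lower in cKO were 5.47% of the 6091 genes tested in Myh1-main, 6.77% of 5008 in Myh2-main, 13.8% of 3674 in Myh7-main and 5.33% of 10295 in Myh4-main nuclei. In the first 3 of these classes Mylk4 was so and Mylk2, the other member tested, was not. In Myh4-main nuclei, of 3 members tested, only Mylk was so, from 24 and 4 UMIs, and it was not when CPM was averaged over nuclei (−0.85 on the log2 scale). Near the 60% limit, nuclei whose main myosin held 60 to 70% had 1705 CPM of Mylk4 in Ctrl against 609 in cKO. Those whose largest share was 50 to under 60%, and that count as mixed, had it at 1810 and 707 CPM.

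Mylk4 was also lower in cKO in FAP-marker and vascular-marker nuclei, whose levels were taken above as background. The part of fibre RNA in these values was not tested. The log2 ratios were −1.83 in FAP-marker nuclei (−2.60 to −1.15) and −2.13 in vascular-marker nuclei (−3.48 to −1.03, 7 cKO UMIs), the latter being −1.33 for Mylk4 when CPM was averaged over nuclei. Immune-marker nuclei, 18 in Ctrl and 13 in cKO, had 838 and 1143 CPM, and their interval held 0 (−0.40 to 1.27). The myosin gene Myh4 had a log2 ratio of −0.31 in FAP-marker nuclei (−0.77 to 0.12), from 461 CPM in Ctrl and 372 in cKO. Over fibre nuclei the Myh4 ratio was −0.12 (−0.15 to −0.09), while in Myh4-main nuclei, a class that Myh4 itself defines, it was 0.49.

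**Figure D2:**
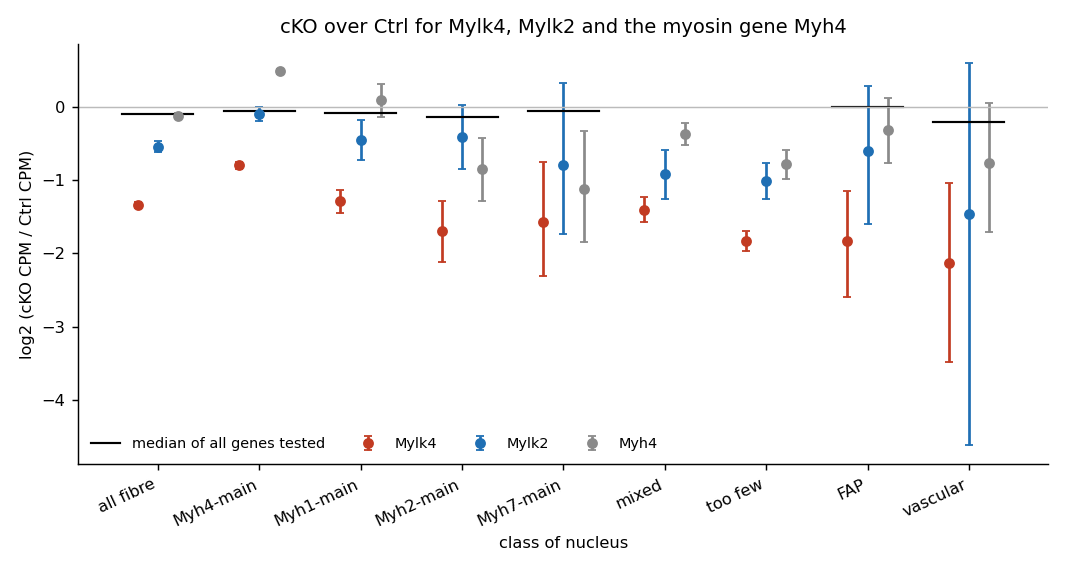
Log2 ratio of cKO over Ctrl CPM by class of nucleus for Mylk4 (red), Mylk2 (blue) and the myosin gene Myh4 (grey), with 95% counting intervals; black lines give the median of all genes tested in the classes where it was computed. Mylk4 lies below 0 in every class shown, from −0.80 in Myh4-main nuclei to −2.13 in vascular-marker nuclei, and below the Mylk2 point in each.

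A smaller share of cKO nuclei held a Mylk4 UMI. A nucleus with 0 UMIs may still hold the transcript, and a lower mean by itself leaves more nuclei at 0. At a common depth of 500 UMIs, 58.2% of Ctrl fibre nuclei (56.5 to 59.9) and 28.5% of cKO fibre nuclei (27.0 to 30.1) held at least 1 Mylk4 UMI, a difference of −29.7 percentage points. Without thinning these shares were 85.1% and 50%. FAP-marker nuclei, at the same depth, had 15.2% in Ctrl and 6.32% in cKO. Of Myh4-main nuclei 69.0% in Ctrl and 46.0% in cKO held one, and of Myh1-main nuclei 35.8% and 21.9%.

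The spread of molecules over nuclei differed by class. In thinned Myh4-main nuclei, the variance of Mylk4 UMIs over their mean was 1.44 in Ctrl and 1.88 in cKO. Nuclei without any Mylk4 UMI made up 31.0% of the class in Ctrl and 54.0% in cKO. Those with 5 or more made up 3.87% and 2.44%, and the most in a nucleus was 9 in Ctrl and 10 in cKO. For Mylk2 in the same nuclei, the variance over the mean was 1.07 in Ctrl and 1.12 in cKO. In Myh1-main nuclei the Mylk4 values went the other way, at 1.63 in Ctrl and 1.41 in cKO.

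**Figure D3:**
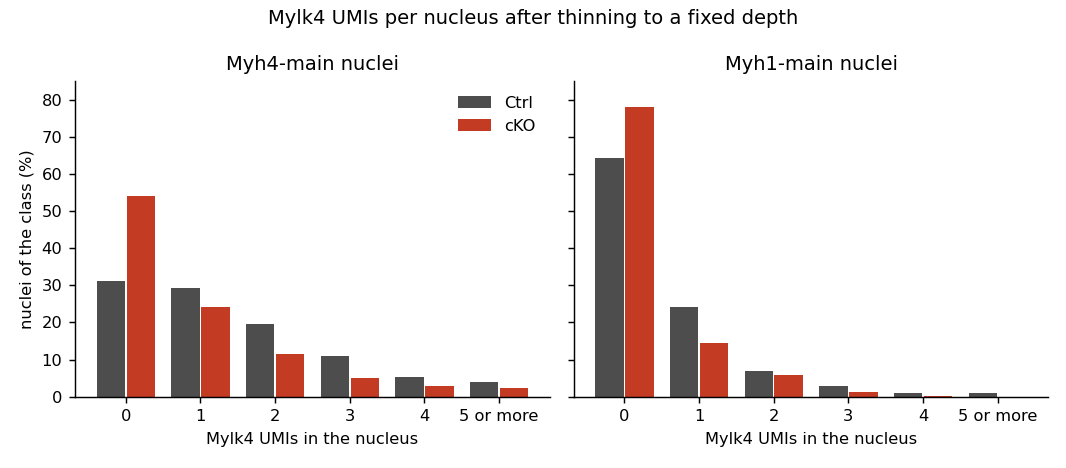
Share of nuclei, in percent, by the number of Mylk4 UMIs they held after each nucleus was thinned to 500 UMIs, for Myh4-main and Myh1-main nuclei in Ctrl (grey) and cKO (red). In Myh4-main nuclei the share at 0 UMIs is 31.0% in Ctrl and 54.0% in cKO, and both libraries keep nuclei with 5 or more.

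The difference depended on the depth of the nucleus. In fibre nuclei of 1000 to 2000 UMIs the Mylk4 log2 ratio was −1.03, in those of 2000 to 4000 UMIs −1.47, and in those of 4000 UMIs or more −1.66. In the shallowest, of 500 to 1000 UMIs, Mylk4 was at 829 CPM in 130 Ctrl nuclei and at 1000 CPM in 490 cKO nuclei, with a log2 ratio of 0.27 (−0.09 to 0.64). Within Myh4-main nuclei the ratios were −0.57, −0.90 and −0.96 in the 3 deeper ranges. The shallowest range there had only 10 Ctrl nuclei with 9 UMIs of Mylk4, against 168 cKO nuclei, and gave 0.43 (−0.52 to 1.57). The cKO library held more shallow nuclei, and the part of depth in the difference was not tested beyond these ranges.

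**Figure D4:**
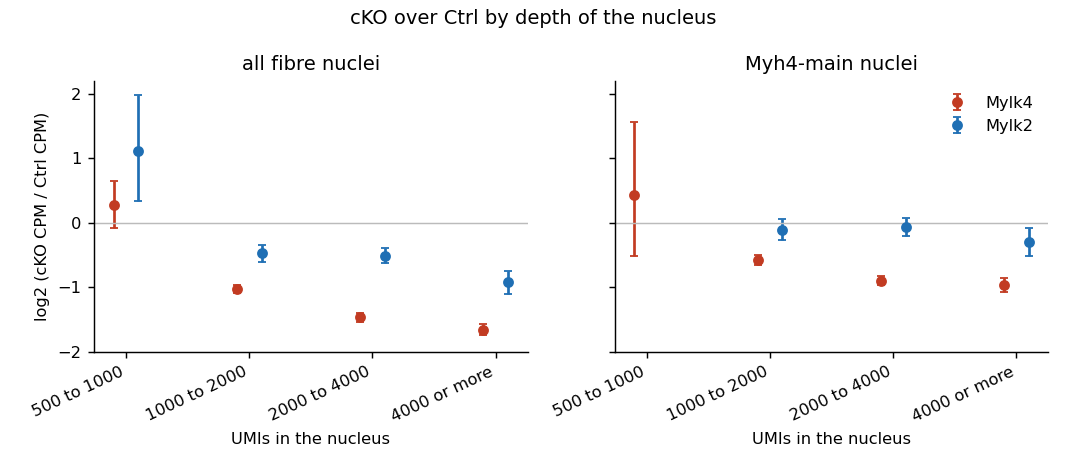
Log2 ratio of cKO over Ctrl CPM for Mylk4 (red) and Mylk2 (blue) by the number of UMIs in the nucleus, over all fibre nuclei and over Myh4-main nuclei, with 95% counting intervals; 1 point with fewer than 5 Ctrl UMIs is not drawn. Mylk4 lies between −0.57 and −1.66 from 1000 UMIs upward, while its intervals at 500 to 1000 UMIs hold 0.

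The makeup of the fibre nuclei differed between libraries too, since Myh4-main nuclei gave 68.5% of fibre UMIs in Ctrl and 43.4% in cKO. The Mylk4 difference of −1516 CPM over all fibre nuclei was split accordingly. Class shares accounted for −420 CPM and levels within classes for −1096 CPM (−1138 to −1053), or 72.3% of the difference. The classes included nuclei with mixed and with too few myosin UMIs. Any difference in fibre makeup inside these counts as a difference of level, which the interval does not cover. Assigning the main myosin at 500 UMIs moved the part from levels to −1428 CPM. In bulk tissue, fewer nuclei of a kind and less RNA per nucleus cannot be told apart.

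Mylk4 was also read in nuclei at the specialised ends and synapses of fibres. In nuclei with markers of the neuromuscular junction, 67 in Ctrl and 64 in cKO, the levels were 2372 and 519 CPM, with a log2 ratio of −2.19 (−2.47 to −1.92). In nuclei with markers of the myotendinous junction, 101 and 89, the levels were 2123 and 578 CPM, with a log2 ratio of −1.88. Fibre nuclei with a UMI of Atf3, a stress-induced transcription factor, had 1627 CPM of Mylk4 in Ctrl against 541 in cKO, and those without one 2523 and 1038 CPM. These groups were not divided by main myosin, so the part of fibre type in their ratios was not tested.

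Additional splits were chosen after their values had been seen. Among cKO Myh4-main nuclei, those with a UMI of Nckap5 had Mylk4 at 1122 CPM (1028 to 1222, 149 nuclei) and those without at 1830 CPM (1778 to 1883, 1328 nuclei). The same split in Ctrl gave 2858 CPM (2656 to 3072) and 2997 CPM (2951 to 3043), which overlap. In cKO Myh1-main nuclei it gave 256 CPM with and 689 CPM without, and in those of Ctrl 1273 and 1323 CPM. Other Ctrl classes did differ by it. Ctrl nuclei with mixed myosin had 1260 CPM with (1011 to 1552) and 1847 CPM without (1716 to 1985). Ctrl nuclei with too few myosin UMIs had 711 CPM with (531 to 932) and 2087 CPM without (1988 to 2190). Among cKO Myh4-main nuclei, those with a UMI of Plpp7 had Mylk4 at 2129 CPM (1990 to 2276, 161 nuclei) and those without at 1657 CPM (1608 to 1707). In Ctrl these levels were 2943 and 3000 CPM. Nuclei with a UMI of either gene were deeper, with cKO medians of 2543 against 1588.5 UMIs for Nckap5 and 2029 against 1618.5 UMIs for Plpp7, and the part of depth was not tested.

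By the likeness of profiles over 9 classes in both libraries, 18 points that share libraries and depth, the genes nearest to Mylk4 among 6305 were Gpt2, Actn3, Dopey2, Phka1 and Cacna2d4. Pearson's r of log2(CPM + 10) was 0.91 for Gpt2, an alanine aminotransferase, and 0.90 for Actn3, the alpha-actinin of fast fibres. It was 0.87 for Phka1, a subunit of phosphorylase kinase that is itself regulated by calmodulin. For Mylk2 the value was 0.84 and for Myh4 0.76. In Myh4-main nuclei Gpt2 had 243 CPM in Ctrl against 98.6 in cKO, and Actn3 had 776 and 757 CPM.

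The genes beside Mylk4 were read as well. Within 500 kb lay 12 other annotated protein-coding genes, mostly of the Serpinb family of protease inhibitors. In fibre nuclei 2 of the 12 had at least 20 UMIs. Gmds, an enzyme of GDP-fucose synthesis, had 43.1 CPM in Ctrl against 38.1 in cKO, with a log2 ratio of −0.18 (−0.41 to 0.05). Wrnip1, which binds the Werner helicase, had 4.57 and 5.42 CPM, with a log2 ratio of 0.25 (−0.44 to 0.93). Neither differed beyond counting error.

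Mylk2, the skeletal muscle kinase, followed fibre type less steeply. In Ctrl it was at 520 CPM in Myh4-main nuclei (502 to 539), 310 CPM in Myh1-main (273 to 350), 193 CPM in Myh2-main (153 to 240) and 239 CPM in Myh7-main nuclei (115 to 440, 10 UMIs). In cKO these levels were 486 CPM (462 to 512), 227 CPM (197 to 260), 145 CPM (118 to 176) and 139 CPM (111 to 171). The Ctrl level was 2.70-fold higher in Myh4-main than in Myh2-main nuclei (2.16 to 3.41). Ctrl FAP-marker nuclei held 0.242 Mylk2 UMIs per nucleus (0.183 to 0.315) against 0.482 in Myh2-main nuclei (0.383 to 0.599). In cKO these means were 0.137 (0.0729 to 0.234) and 0.309 (0.252 to 0.375). Per nucleus the Myh2-main value of Mylk2 thus lay above that of FAPs in both libraries. On the CPM scale the Ctrl intervals overlapped, with 130 CPM in FAP-marker nuclei (98.6 to 169).

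Between libraries Mylk2 differed less than Mylk4. Over all fibre nuclei the Ctrl level was 464 CPM (450 to 479) and the cKO level 319 CPM (306 to 333), with a log2 ratio of −0.54 (−0.62 to −0.47). In Myh4-main nuclei the log2 ratio was −0.10 (−0.19 to −0.01), against a median of all genes of −0.05, and in Myh1-main nuclei −0.45 (−0.72 to −0.18). In Myh2-main and Myh7-main nuclei the intervals held 0. Nuclei with mixed myosin gave −0.92 and those with too few myosin UMIs −1.01. In fibre nuclei of 500 to 1000 UMIs the direction was the opposite, with 166 CPM in Ctrl from 15 UMIs against 357 in cKO, and a log2 ratio of 1.11 (0.34 to 1.98). Of these shallow nuclei 10 of 130 in Ctrl and 168 of 490 in cKO were Myh4-main, and the part of this makeup was not tested.

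The quotient of Mylk4 over Mylk2 UMIs does not depend on the total used for scaling. Over fibre nuclei Ctrl had 5.39 (5.21 to 5.58) and cKO 3.09 (2.95 to 3.25). In Myh4-main nuclei it was 5.75 and 3.54, in Myh1-main nuclei 4.26 and 2.38, and in Myh2-main nuclei 1.81 (1.37 to 2.41) and 0.745 (0.546 to 1.01). FAP-marker nuclei had 3.45 (2.55 to 4.73) and 1.46 (0.685 to 3.22). The intervals of the libraries did not overlap in the Myh4-main, Myh1-main and Myh2-main classes. In Myh2-main nuclei, however, neither gene could be told apart from background. In Myh7-main nuclei the quotients, 1.80 (0.788 to 4.36) and 1.05 (0.771 to 1.42), could not be told apart at this depth.

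Mylk, the smooth muscle kinase, had its highest levels outside the fibres, although fibre nuclei, being far more numerous, held about as many of its UMIs as all others. In smooth muscle and pericyte nuclei the Ctrl level was 483 CPM (295 to 747, 20 UMIs) and the cKO level 562 CPM (226 to 1157, 7 UMIs). Endothelial nuclei had 107 CPM in Ctrl from 9 UMIs against 38.4 in cKO from 1 UMI. FAP-marker nuclei held 65.2 CPM (43.4 to 94.3) and 79.6 CPM (41.2 to 139). In Ctrl the level in vascular-marker nuclei was 37.6-fold that in fibre nuclei (23 to 60.5; 5.23 on the log2 scale, and 4.42 when CPM was averaged over nuclei), and in smooth muscle and pericyte nuclei 78.8-fold (44.5 to 134). Unthinned, 48% of Ctrl smooth muscle and pericyte nuclei held a Mylk UMI, against 0.818% of fibre nuclei, at median depths of 1460 and 2111 UMIs.

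No difference between libraries was detectable for Mylk outside the fibres. The log2 ratio was −0.15 in vascular-marker nuclei (−1.49 to 1.01) and 0.29 in FAP-marker nuclei (−0.82 to 1.31). In fibre nuclei the Ctrl level of Mylk was 6.14 CPM (4.57 to 8.07, 51 UMIs) and the cKO level 3.42 CPM (2.19 to 5.09, 24 UMIs, 8 of them in 1 nucleus), with a log2 ratio of −0.84 (−1.61 to −0.12). For Mylk this was −0.39, with an interval that held 0, when nuclei needed 1000 UMIs, and −1.72 when CPM was averaged over nuclei. In Myh4-main nuclei the log2 ratio of Mylk was −1.68 (−3.67 to −0.14), or −0.85 when CPM was averaged over nuclei. Fibre nuclei with no vascular or FAP marker UMI had 3.03 CPM in Ctrl against 2.13 in cKO, and those with 1 or more held 7.87 and 4.57 CPM. The part of vascular RNA in the fibre value was not tested further.

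The genes nearest to Mylk in profile included Eps8, Cald1, Gucy1a2 and Dlc1, with r between 0.94 and 0.97 over the same 18 points. Cald1 encodes caldesmon, an actin-binding protein of smooth muscle, and Gucy1a2 a subunit of the nitric oxide receptor guanylate cyclase.

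Mylk3, the cardiac kinase, was at the limit of detection. It had 10 UMIs in Ctrl and 7 in cKO fibre nuclei, or 1.2 CPM (0.577 to 2.21) and 0.999 CPM (0.402 to 2.06). Of the Myh4-main nuclei, 0.301% in Ctrl and 0.203% in cKO held a UMI. Outside the fibres it had 0 UMIs, which in Ctrl FAP-marker nuclei allows a level of up to 6.99 CPM at 3 UMIs, or 8.60 CPM as the upper end of the Poisson interval. A difference between libraries was not detectable at this depth, with a log2 ratio of −0.27 (−1.90 to 1.27).

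The other genes of light chain phosphorylation were read from a list of 40, of which 32 had at least 50 UMIs in fibre nuclei. The counting interval lay above 0 for 12 of them, below 0 for 10 and held 0 for 10. Over the 9567 genes with at least 50 UMIs, it lay above 0 for 14.5% and below 0 for 25.5%. Intervals are narrower for genes with more UMIs, and the listed genes had a median of 1473 UMIs against 295 for all 9567. Their median log2 ratio was 0.03, against −0.09 over those 9567 genes. At least 2-fold higher in cKO were 4, and 0 were at least 2-fold lower. When CPM was averaged over nuclei, Myl12a, at 0.94, was no longer 2-fold higher and Dapk2, at −1.15, was 2-fold lower. Over those 9567 genes, 2.96% were at least 2-fold higher and 3.72% at least 2-fold lower.

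The 4 genes past 2-fold were all light chains. Myl2, the slow regulatory light chain and itself a substrate of these kinases, had 18.5 CPM in Ctrl against 158 in cKO, with a log2 ratio of 3.09 (2.85 to 3.34). Myl3, the slow essential light chain, had 3.97 and 17.1 CPM, a log2 ratio of 2.11. Myl1, the fast essential light chain, was at 740 and 1547 CPM, a log2 ratio of 1.06. Myl12a, a regulatory light chain of nonmuscle myosin, was at 12.8 and 29.8 CPM, a log2 ratio of 1.22. Mylpf, the fast regulatory light chain, was at 107 and 147 CPM, a log2 ratio of 0.46 (0.33 to 0.59). Beside the slow light chains stands the number of Myh7-main nuclei, 20 of 3179 fibre nuclei in Ctrl and 283 of 3441 in cKO, whose part in these ratios was not tested.

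Calm2, a gene for calmodulin, had 178 CPM in Ctrl against 200 in cKO, with a log2 ratio of 0.17 (0.06 to 0.27). Among other kinases that act on the light chain, Dapk2, a calmodulin-regulated kinase, had 257 CPM in Ctrl against 133 in cKO, with a log2 ratio of −0.95 (−1.07 to −0.84). Rock2, the kinase that also inhibits the light chain phosphatase, was at 415 and 613 CPM, a log2 ratio of 0.56 (0.50 to 0.63). Pak1 gave 0.49 (0.16 to 0.82). In the phosphatase group all 7 measured genes lay within 0.24 of 0 on the log2 scale, among them Ppp1r12b, the striated muscle targeting subunit, at 1493 and 1757 CPM. The directions of Ppp1cb, Ppp1cc, Ppp1r12a, Cdc42bpa and Kalrn turned when Malat1 and mitochondrial genes were left out. The giant relatives with a kinase domain of the same family included Ttn, Speg, Trio and Kalrn, which ranged from −0.39 for Trio to 0.09 for Speg.

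**Figure D5:**
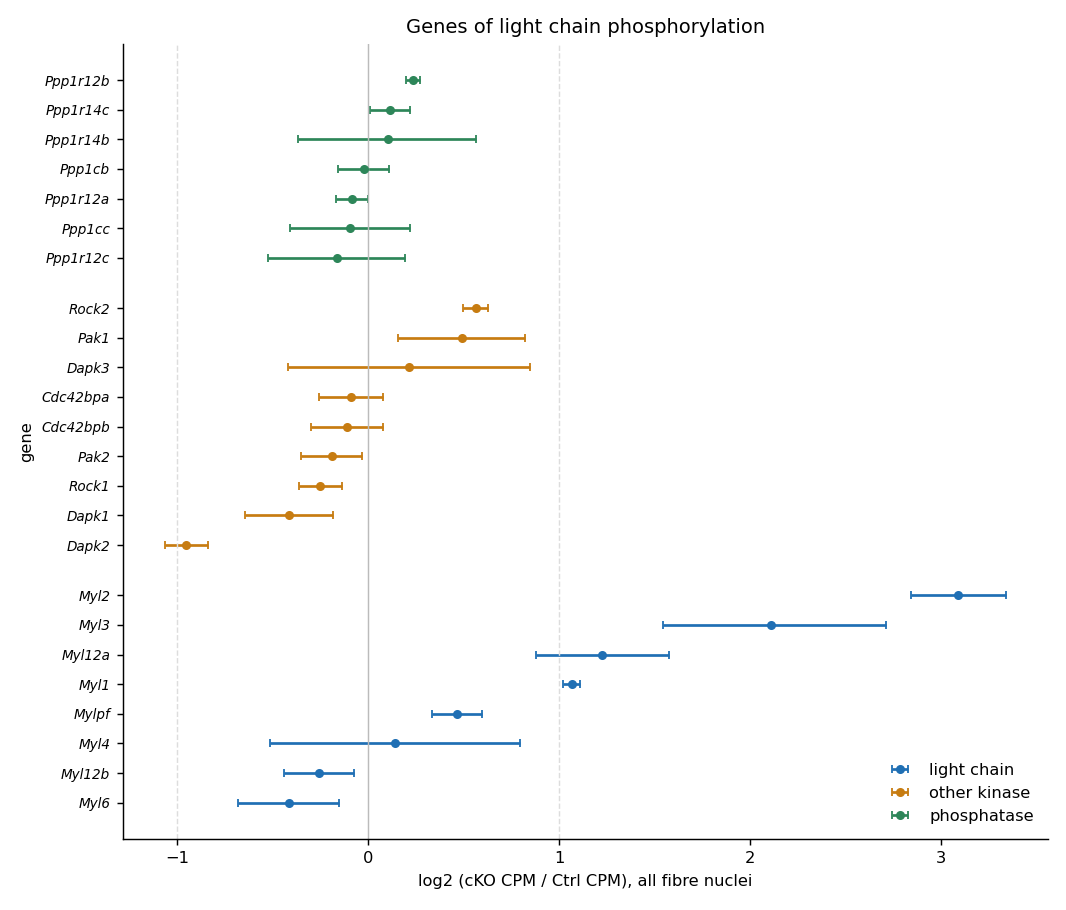
Log2 ratio, cKO to Ctrl, in all fibre nuclei for the light chains, other kinases and phosphatase genes of the list with at least 50 UMIs, coloured by role, with 95% counting intervals; dashed lines mark a 2-fold difference. Myl2, at 3.09, and 3 other light chains lie past 2-fold higher, and Dapk2, at −0.95, lies lowest.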

How the data were processed

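Counts of UMIs per gene and barcode were deposited by the authors, who ran Cell Ranger 3.1.0 against mm10 with its default settings. The kit release differs between the labels and the methods, and intronic reads are not mentioned. Nuclei were kept with at least 100 genes, 500 UMIs and at most 10% of UMIs from mitochondrial genes. Scrublet (scanpy 1.11.5, expected doublet rate 0.06) marked 0 nuclei, so the top 8% of each library by score were dropped, a choice made after that result. Sums of UMIs by class in each library were scaled to CPM, without clustering. Intervals were exact Poisson for CPM, Clopper-Pearson for shares and exact conditional for ratios. Differences of ratios used a normal approximation. Thinning was random with a fixed seed. Genes entered counts past 2-fold with at least 20 UMIs over both libraries, and likeness with at least 200. From the pathway list the 8 genes with the largest absolute log2 ratio were to be named. Some genes that these rules select are not reported here. The members and lists were chosen with earlier results of these data known. Promoter sequences came from RefSeq, where 3 of the 4 members, all but Mylk2, had an entry. GENCODE M21 held 27645 of the identifiers and lacked 353. The intervals, thinning and classing were tested on simulated data. Software was scipy 1.17.1, numpy 2.4.6, matplotlib 3.10.9 and pandas 2.3.3 under Python 3.11.15. Other marker limits, myosin limits, depth minimums, scalings and thinned depths were tried as alternatives.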

Additional observations from a re-analysis of the deposited data

How the results depend on the processing

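The 13 results were recomputed under 88 combinations with the alternatives, and 87 values kept their direction. The exception was the Mylk4 log2 ratio in Myh7-main nuclei, which was 0.65 when the main myosin was assigned after thinning to 500 UMIs, a class then holding 6 Ctrl nuclei and 1 Ctrl UMI of Mylk4. Within the counting interval of the reported value lay 71 values. Leaving out Malat1 and mitochondrial genes gave log2 ratios over all fibre nuclei of −0.44 for Mylk2 and −1.24 for Mylk4, and −1434 CPM for the part of the Mylk4 difference from levels within classes. Averaging CPM over nuclei gave −1.72 for Mylk, −0.44 for Mylk2 and −1.19 for Mylk4 over all fibre nuclei. It gave −1.11 for Mylk4 in Myh1-main and −0.71 in Myh4-main nuclei, a log2 ratio of 4.42 for Mylk in vascular-marker over fibre nuclei of Ctrl, and −993 CPM for the part from levels. Keeping the highest doublet scores gave −2.12 for Mylk4 in Myh2-main nuclei. Assignment after thinning gave −0.65 for Mylk4 in Myh4-main nuclei and −1428 CPM from levels, and 80% of at least 5 myosin UMIs gave −1232 CPM. The difference in the share of fibre nuclei with a Mylk4 UMI was −36.0 points when thinned to 1000 UMIs, without 130 Ctrl and 490 cKO nuclei that were shallower, and −35.1 points without thinning. The cause of these shifts was not tested. No paired analysis was possible because each group has 1 library. Depth limits Mylk3, Mylk outside the fibres and all values in Ctrl Myh7-main nuclei, and counting intervals say nothing of the spread between animals.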
